A study of Bos taurus with 6 samples.

Results

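The ubiquitin-conjugating enzymes, or E2 enzymes, were examined in RNA of cow oocytes that had matured in culture and stood at metaphase II (MII), where meiosis pauses until fertilization. The set holds the 31 genes, of 17325 in all, whose symbol starts with UBE2, apart from 3 named next. Of the 34 symbols that start that way, UBE2C and UBE2S, which act with the anaphase-promoting complex, and UBE2L6, which acts on ISG15, were left out by the rule. 6 libraries were sequenced, 3 labelled NC (negative control) and 3 labelled siMTFP1 (MTFP1 knockdown), all of cell type oocyte. MTFP1 encodes a mitochondrial inner membrane protein linked to fission. The labels give no breed, animal, dose or number of oocytes per library, and do not say whether replicates came from separate cultures, so the p-values speak for the spread among these 6 libraries alone, part of which may be technical.

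An E1 enzyme activates ubiquitin and passes it to a cysteine of an E2, and the E2, together with an E3 ligase, transfers it to a substrate. The choice of E2 helps decide whether a protein carries 1 ubiquitin or a chain, and through which lysine the chain is linked. Ubiquitin-dependent destruction of cyclin B and securin drives the egg out of metaphase arrest. A mature oocyte is nearly silent in transcription, so its messenger RNA is mostly a maternal store. Some E2 enzymes carry not ubiquitin but a relative of it, such as NEDD8.

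Levels are FPKM, a fragment count divided by transcript length and by the mapped total of the library, so they can be set side by side between genes. Sequencing depth is unknown, the sum over all genes ran from 784366 to 892790.4 FPKM per library, and 15120 to 15533 genes per library lay above 0. Where a pair of means is given, the first is that of the libraries labelled control and the second that of the libraries labelled knockdown, each ± SD with n = 3. The target, MTFP1, was at 0.53, 0.55 and 0.05 FPKM in control 1, 2 and 3 and at 0.43, 0.58 and 1.15 FPKM in knockdown 1, 2 and 3. It was not lower in the knockdown libraries (exact two-sided permutation test of log2 values, p = 0.4, where 0.1 is the smallest possible). Its means of 0.38 and 0.72 FPKM in the control and knockdown libraries are near 0, so they say little about whether the knockdown worked. Control and knockdown below therefore name the labels and nothing more. All 15 oocyte markers found in the files had a mean of at least 1 FPKM, with sums of 19488 to 21262 FPKM in the control and 21288 to 21356 in the knockdown libraries. All 23 cumulus and granulosa markers were found, 13 of them with a mean of at least 1 FPKM, with sums of 141 to 177 and 164 to 208 FPKM. Levels within this list varied widely. STAR, HAS2 and VCAN had the highest means, 65.65, 41.5 and 14.9 FPKM over the 6 libraries. The FSH receptor FSHR was listed at 0 in every library but control 3 (0.02 FPKM), and AMH, AMHR2, FOXL2 and the aromatase CYP19A1 stayed at or below 0.24 FPKM. Of the 13 tested cumulus and granulosa markers 9 had a higher mean in the knockdown libraries and 4 a lower one, with a median difference of 0.23 on the log2(FPKM + 1) scale, against 0.02 over all tested genes. The intermediate filament gene VIM stood at 6.67, 0.4 and 1.25 FPKM in the control and 4.71, 13.8 and 6.56 FPKM in the knockdown libraries, and the inhibin subunit INHA at 1.98, 0.65 and 1.99 and at 6.53, 15.7 and 1.42 FPKM. They were the 2 markers with an unadjusted limma p under 0.05, both in the higher direction (3.86% of all tested genes), with adjusted p-values of 0.75 each, and their groups overlapped. The steroid enzyme CYP11A1 averaged 2.14 ± 1.78 and 6.13 ± 6.43 FPKM. Of the lower markers, TNFAIP6 stood at 5.31, 1.51 and 17.1 FPKM in the control and 1.06, 2.84 and 1.16 FPKM in the knockdown libraries. Its log2 difference was -1.36 (SE 0.61), with a limma adjusted p of 0.77, and its groups overlapped. The 8 leukocyte markers summed to 3.23 to 7.45 and 4.75 to 6.99 FPKM. In bulk libraries such as these, fewer cells of a type and less RNA per cell cannot be told apart.

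The E2 genes were abundant as a set and uneven among themselves. Of the 31 members, 22 (71.0%) had a mean of at least 10 FPKM over the 6 libraries, against 26.3% of all genes, and 11 (35.5%) had a mean of at least 100 FPKM, against 6.63%. The median member stood at 63.4 FPKM and the median gene at 1.60 FPKM. Together the members summed to 7268 ± 486 FPKM (SD, n = 3) in the control and 7025 ± 157 FPKM in the knockdown libraries, which was 0.805% to 0.893% of all FPKM in a library. At the other end 7 members lay between 1 and 10 FPKM, and UBE2O and UBE2QL1 lay under 1.

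The order of the members by level was firm for some of them and loose for others. Of the 30 pairs of neighbours in that order, 13 stood in the same order in every library, and in 11 the 2 ranges did not overlap at all. UBE2D3 lay above UBE2L3 in every library without overlap. UBE2L3 and UBE2E1 exchanged places between libraries, UBE2L3 being the higher in 4 of 6. UBE2N lay below UBE2E1 and above UBE2T in all 6. UBE2T, UBE2V1 and UBE2E3 overlapped in succession, as did the run from UBE2D2 down to UBE2H through UBE2D1, UBE2Q2, UBE2G1, UBE2A, UBE2B and UBE2V2. UBE2H lay above UBE2Q1 and UBE2K above UBE2W without overlap, and so did UBE2R2 above UBE2D4 and UBE2G2 above UBE2U.

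**Figure D1:**
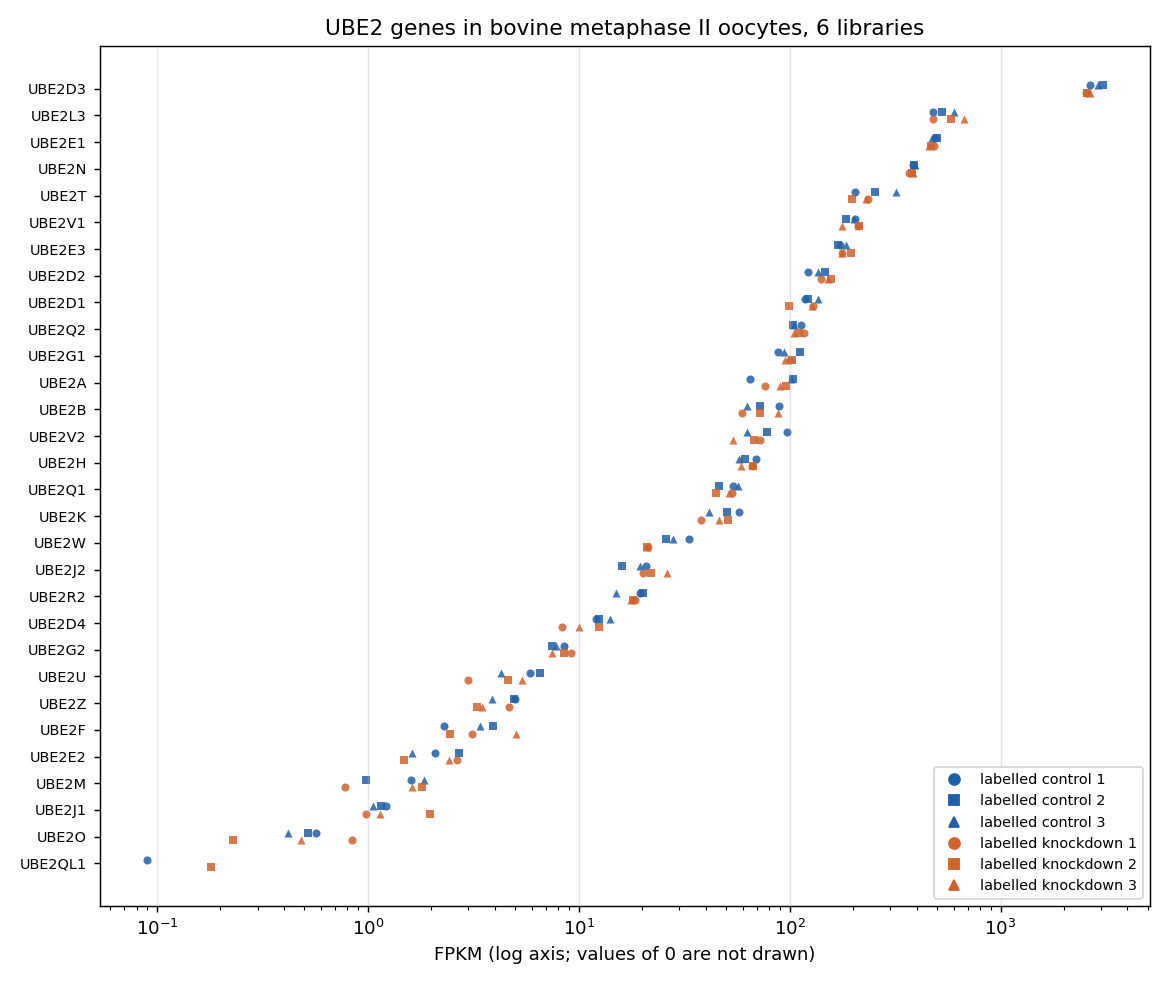
FPKM of 30 of the 31 UBE2 genes (vertical axis, ordered by mean) in each of the 6 libraries, on a log axis. Blue symbols are the libraries labelled control and orange ones those labelled knockdown. The genes run from UBE2D3, with a mean of 2728 FPKM, to UBE2QL1, with a mean of 0.045 FPKM, and the 2 groups lie on top of each other for most genes.

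Over the whole set, the E2 genes differed little between the groups. Differences are knockdown minus control on the log2(FPKM + 1) scale, and genes with a mean of at least 1 FPKM were tested with limma and Benjamini-Hochberg adjustment over all of them. 29 of the 31 members were tested, and 0 passed an adjusted p of 0.05, where the share called among all 9730 tested genes was 0.0%. At an unadjusted p under 0.05 there was 1 member, UBE2W, in the lower direction (2.66% of all tested genes), and 0 in the higher direction (3.86%), which is 1 of 29 beside 6.53% of all tested genes. The groups did not overlap in 2 members, UBE2W and UBE2N, both lower (5.05% of all tested genes), and in 0 higher (5.97%), beside 11.0% of all tested genes in either direction. These counts are near the background. In 13 of the tested members the knockdown mean was above the control mean and in 16 it was below, and this split moved to 9 and 20 under median-ratio scaling. The median log2 difference was -0.02, against 0.02 over all tested genes. The differences ran from -0.44 for UBE2W to 0.26 for UBE2J2, and 0 members reached an absolute log2 difference of 0.5, which 6.71% of all tested genes did. The 95% interval lay within 1 of 0 on the log2(FPKM + 1) scale for all 29, so differences of that size on this scale lie outside the interval of each tested gene taken singly. The scale understates changes of low genes. For scarce members such as UBE2U and UBE2M, a change of FPKM by a factor of 2 can lie inside the interval.

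**Figure D2:**
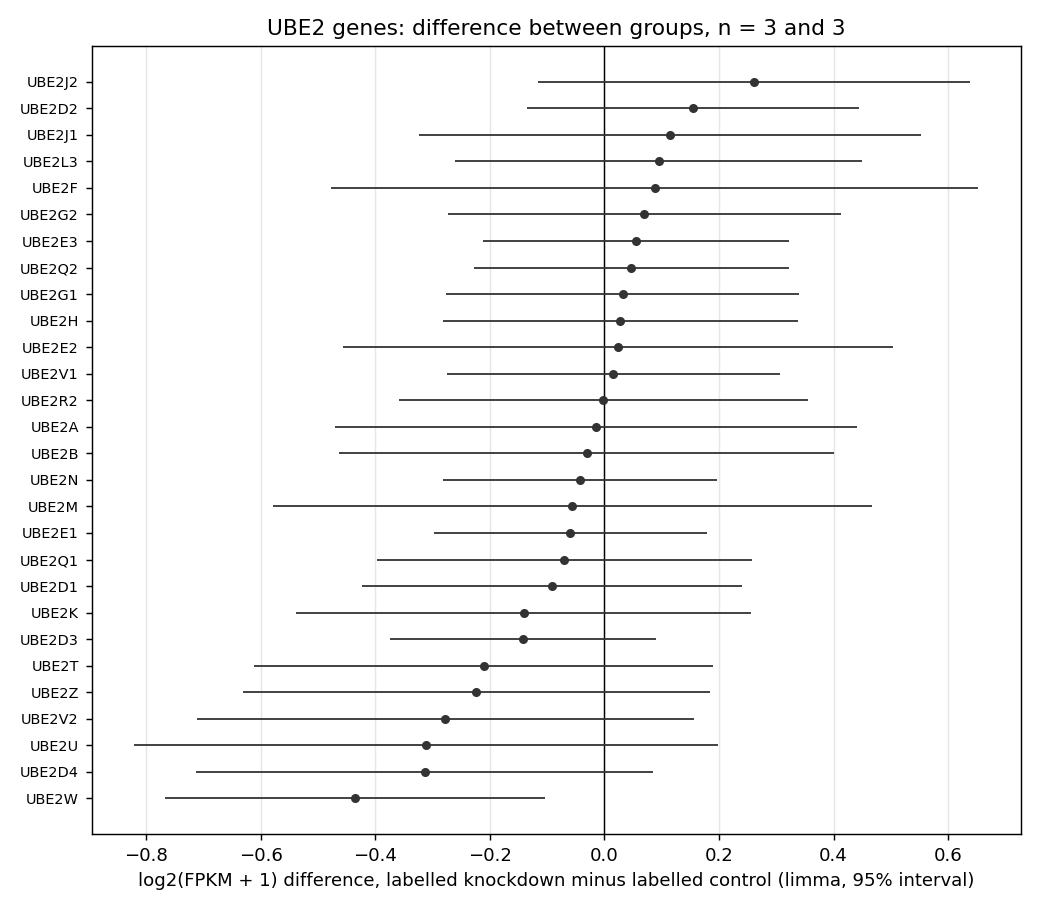
Difference in log2(FPKM + 1) between the libraries labelled knockdown and those labelled control for 28 of the 29 tested UBE2 genes, ordered by size, with the 95% interval from limma (n = 3 and 3). Points right of the line at 0 are higher in the knockdown libraries. UBE2W, at the bottom, is the 1 gene whose interval does not reach 0, and the intervals drawn lie between -0.82 and 0.65.

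The UBE2D enzymes are general-purpose E2s that work with a very wide range of RING and HECT ligases, often adding the first ubiquitin. UBE2D3 (NCBI gene ID 326583) was the most abundant member and ranked 36 among all 17325 genes. Its level was 2652, 3053 and 2888 FPKM in the libraries labelled control 1, 2 and 3 and 2548, 2570.3 and 2656 FPKM in those labelled knockdown 1, 2 and 3. Knockdown 1 and 2 lay below every control library and knockdown 3 just above control 1, so the groups overlapped. The log2 difference was -0.14 (SE 0.10), with a 95% interval of -0.37 to 0.09 and a limma adjusted p of 0.88.

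The closest relatives of UBE2D3 were far less abundant. UBE2D2 (gene ID 541003) stood at 122, 147 and 137 FPKM in the control and 141, 158 and 152 FPKM in the knockdown libraries. UBE2D1 (gene ID 535287) stood at 119, 122 and 137 FPKM in the control and 129, 99.3 and 127 FPKM in the knockdown libraries, and UBE2D4 (gene ID 511801) at 12.1, 12.5 and 14.1 FPKM in the control and 8.32, 12.4 and 10.1 FPKM in the knockdown libraries. UBE2D2 exceeded UBE2D1 in all 6 libraries, by a ratio of 1.00 to 1.59, and UBE2D1 exceeded UBE2D4 by a ratio of 7.98 to 15.5. UBE2D4 had a log2 difference of -0.31 (SE 0.18) and UBE2D2 one of 0.15 (SE 0.13), with limma adjusted p-values of 0.828 and 0.892. With 1 library left out, UBE2D4 ranged from -0.45 (without knockdown 2) to -0.18 (without knockdown 1). The UBE2D genes are close in sequence, and the sources used here do not say how the authors divided reads that fit several genes, so the split between them is uncertain.

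The means of UBE2D3 and UBE2D2 differed between the groups in opposite directions, neither past the test, and their ratio was set beside them. UBE2D3 was 21.7, 20.8 and 21.1 times the level of UBE2D2 in control 1, 2 and 3 and 18.1, 16.3 and 17.4 times in knockdown 1, 2 and 3. Every control library lay above every knockdown library. The exact two-sided permutation test of the log2 ratio gave p = 0.1, the smallest that 3 against 3 allows, and 0.9 after Benjamini-Hochberg adjustment over the 12 pairs of related E2 genes that were compared. After quantile normalization the exact permutation p was 0.2. The other 11 ratios overlapped between the groups. For single genes, the groups did not overlap in 11.0% of all tested genes. UBE2D3 also took 39.5%, 40.6% and 38.1% of the summed FPKM of the members in control 1, 2 and 3, and 37.0%, 36.7% and 36.9% in knockdown 1, 2 and 3. These shares did not overlap either, and they rest on the same UBE2D3 values as the ratio. Both were singled out after their values were seen.

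**Figure D3:**
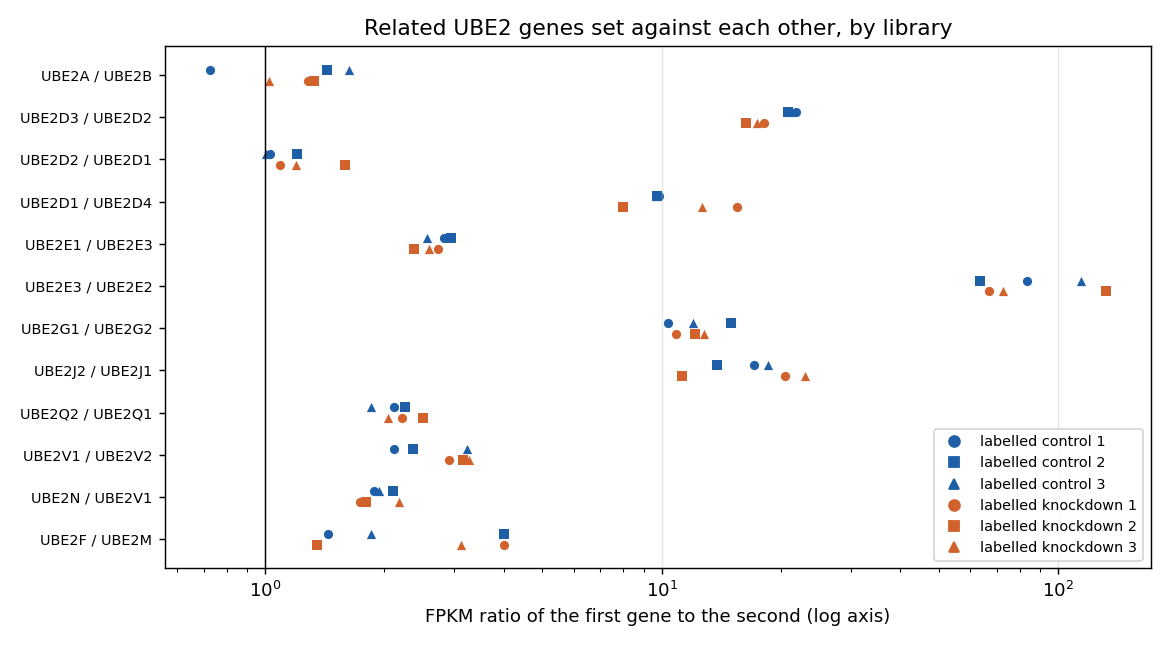
Ratio of FPKM between related UBE2 genes in each library, on a log axis, with a line at a ratio of 1. Blue symbols are the libraries labelled control and orange ones those labelled knockdown. In the UBE2D3 to UBE2D2 row the control libraries (20.8 to 21.7) lie to the right of the knockdown libraries (16.3 to 18.1), and in the other rows the groups overlap.

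The UBE2E enzymes share the UBE2D core and carry an extended amino-terminal end. UBE2E1 (gene ID 615599) stood at 490.1, 500.1 and 475 FPKM in the control and 482, 466 and 458 FPKM in the knockdown libraries, a coefficient of variation of 3.24% over the 6 libraries. UBE2E3 (gene ID 534349) stood at 173, 170.3 and 185 FPKM in the control and 177, 196 and 177 FPKM in the knockdown libraries. UBE2E2 was scarce, with 2.07, 2.69 and 1.62 FPKM in the control and 2.65, 1.49 and 2.43 FPKM in the knockdown libraries. The family thus ran in 1 order in every library, UBE2E1 above UBE2E3 by a ratio of 2.38 to 2.94 and UBE2E3 above UBE2E2 by a ratio of 63.3 to 132. The log2 differences of the abundant pair were -0.06 (SE 0.10) and 0.05 (SE 0.12), and the groups overlapped in all 3 genes. The sum of the 3 genes stayed between 637 and 673 FPKM over the 6 libraries.

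UBE2N and its partners build ubiquitin chains linked through lysine 63, which signal in DNA repair and immunity rather than mark proteins for the proteasome. UBE2N (gene ID 541130) is the catalytic subunit, and UBE2V1 and UBE2V2 resemble an E2 but lack the catalytic cysteine. UBE2N was the steadiest member, at 385, 389.5 and 391 FPKM in the control and 367, 381 and 383 FPKM in the knockdown libraries. Its coefficient of variation was 2.23%, against a median of 13.7% over the tested members and 18.4% over all tested genes. Every knockdown value lay below every control value, although the means differed by a factor of only 0.971 and the log2 difference was -0.04 (SE 0.10) with a limma adjusted p of 0.97.

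UBE2V1 (gene ID 617771) stood at 205, 185 and 202 FPKM in the control and 211, 212 and 176 FPKM in the knockdown libraries, and UBE2V2 (gene ID 286803) at 97.0, 78.4 and 62.6 FPKM in the control and 72.7, 67.5 and 54.0 FPKM in the knockdown libraries. UBE2V1 exceeded UBE2V2 in all 6 libraries, by a ratio of 2.11 to 3.26. UBE2N exceeded the sum of UBE2V1 and UBE2V2 in every library, by a ratio of 1.28 to 1.66. UBE2V2 had a log2 difference of -0.28 (SE 0.19) with an interval of -0.71 to 0.16, and control 1 and 2 lay above every knockdown library while control 3 lay below knockdown 1 and 2. With 1 library left out its log2 difference ranged from -0.44 (without control 3) to -0.12 (without control 1). Of the ligases known to use UBE2N, TRAF6 averaged 28.6 ± 3.30 and 26.4 ± 1.98 FPKM and RNF8 25.6 ± 3.79 and 24.3 ± 2.94 FPKM in the 2 groups.

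UBE2A and UBE2B are the 2 mammalian versions of yeast RAD6, which ubiquitinate histone H2B with RNF20 and RNF40 and the replication clamp PCNA with RAD18. UBE2A (gene ID 282107) stood at 64.9, 104 and 102 FPKM in the control and 76.3, 96.3 and 90.3 FPKM in the knockdown libraries. UBE2B (gene ID 512207) stood at 89.4, 72.6 and 62.6 FPKM in the control and 59.4, 72.6 and 88.2 FPKM in the knockdown libraries. The pair was near parity, with UBE2A the higher in 5 of 6 libraries and UBE2B the higher in control 1. Their log2 differences were -0.02 (SE 0.20) and -0.03 (SE 0.19), and each changed sign when certain single libraries were left out. Among their ligases RAD18 averaged 115 ± 31.1 and 95.3 ± 2.58 FPKM, RNF20 5.52 ± 1.05 and 6.93 ± 1.78 FPKM and RNF40 1.05 ± 0.433 and 0.733 ± 0.0737 FPKM. RAD18 was thus present at a level like that of its E2s and the H2B ligases at a much lower one.

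UBE2T attaches a single ubiquitin to the Fanconi anemia protein FANCD2 with the ligase FANCL, a step in repair of crosslinked DNA. UBE2T (gene ID 505314) stood at 204, 255 and 319.8 FPKM in the control and 235, 197 and 230.4 FPKM in the knockdown libraries. Control 3 was the highest and knockdown 2 the lowest, and the groups overlapped (log2 difference -0.21 (SE 0.18), interval -0.61 to 0.19). With 1 library left out the log2 difference ranged from -0.37 (without control 1) to -0.05 (without control 3). FANCL averaged 159.7 ± 15.1 and 172 ± 0.968 FPKM and had the highest mean of the RING and RBR ligase list (166 FPKM).

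A group of E2s serves chains linked through lysine 48, the classical mark for the proteasome, and the disposal of misfolded proteins from the endoplasmic reticulum. UBE2K (gene ID 281225), which extends lysine 48 chains, stood at 57.8, 50.6 and 41.2 FPKM in the control and 37.9, 50.9 and 46.4 FPKM in the knockdown libraries. UBE2R2 (gene ID 537885), which works with cullin-RING ligases, stood at 19.6, 20.2 and 15.0 FPKM in the control and 18.5, 18.1 and 17.6 FPKM in the knockdown libraries. UBE2G1 (gene ID 613676) stood at 88.0, 112 and 93.8 FPKM in the control and 99.99, 103 and 95.5 FPKM in the knockdown libraries, and in each of these genes the groups overlapped. UBE2G2 (gene ID 614471), which acts in that disposal, stood at 8.48, 7.45 and 7.83 FPKM in the control and 9.20, 8.48 and 7.46 FPKM in the knockdown libraries. UBE2G1 thus exceeded UBE2G2 by a ratio of 10.4 to 15.0. The endoplasmic reticulum ligase SYVN1 averaged 32.9 ± 7.79 and 31.6 ± 6.74 FPKM.

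UBE2J1 and UBE2J2 are anchored in the membrane of the endoplasmic reticulum. UBE2J2 (gene ID 506103) stood at 20.9, 16.0 and 19.6 FPKM in the control and 20.1, 22.1 and 26.2 FPKM in the knockdown libraries. It had the smallest p among members with a higher mean in the knockdown libraries, a log2 difference of 0.26 (SE 0.17) with an interval of -0.12 to 0.64 and a limma adjusted p of 0.859. Control 1 lay above knockdown 1, so the groups overlapped. UBE2J1 stood at 1.22, 1.16 and 1.06 FPKM in the control and 0.98, 1.96 and 1.14 FPKM in the knockdown libraries, and UBE2J2 exceeded it by a ratio of 11.2 to 23.0.

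The E2s for NEDD8, which switches on cullin-RING ligases, lay at the low end of the range. UBE2M, which serves RBX1, stood at 1.60, 0.98 and 1.85 FPKM in the control and 0.78, 1.80 and 1.62 FPKM in the knockdown libraries. UBE2F, which serves RNF7, stood at 2.3, 3.92 and 3.42 FPKM in the control and 3.13, 2.44 and 5.06 FPKM in the knockdown libraries, above UBE2M in all 6 libraries by a ratio of 1.36 to 4.01. The modifier, its E1 and the most abundant cofactor were higher: NEDD8 averaged 66.1 ± 20.3 and 79.3 ± 15.5 FPKM, the E1 subunits NAE1 266 ± 15.9 and 256 ± 5.22 FPKM and UBA3 64.4 ± 2.19 and 59.4 ± 1.34 FPKM, and the ligase cofactor DCUN1D5 318 ± 19.5 and 328 ± 21.0 FPKM. The deneddylase COPS5 averaged 3.58 ± 1.46 and 3.75 ± 0.813 FPKM, near UBE2F, and the cofactor DCUN1D2 lay under 1 FPKM. The RING subunits RBX1 and RNF7 averaged 88.8 and 123 FPKM over the 6 libraries. Of 7 tested NEDD8 cofactors 4 were higher and 3 lower in the knockdown libraries, and 1, the cofactor DCUN1D3 (2.19 ± 0.795 and 1.16 ± 0.208 FPKM), reached an unadjusted p under 0.05 in the lower direction, as did 2.66% of all tested genes (log2 difference -0.53 (SE 0.22), limma adjusted p = 0.75).

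**Figure D4:**
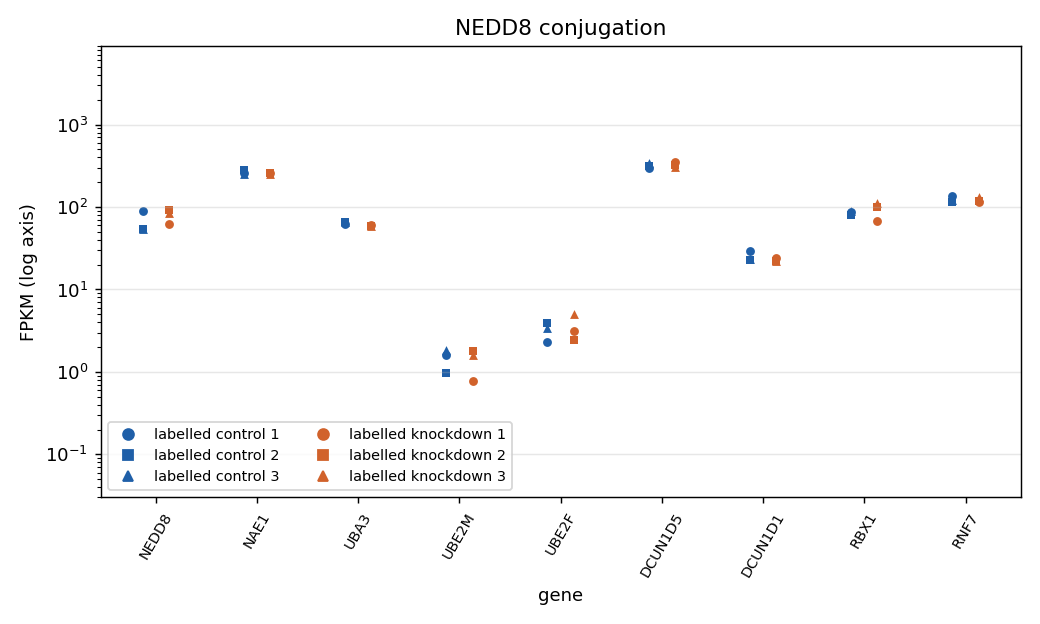
FPKM (log axis) in each library of genes for NEDD8 conjugation. Blue symbols are the libraries labelled control and orange ones those labelled knockdown. UBE2M and UBE2F lie between 0.78 and 5.06 FPKM, below the other NEDD8 genes drawn; the cofactors COPS5, DCUN1D2 and DCUN1D3, whose levels overlap theirs or lie below, are not drawn.

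UBE2Z receives both ubiquitin and the ubiquitin-like protein FAT10 from the E1 enzyme UBA6. UBE2Z (gene ID 100138178) stood at 4.99, 4.93 and 3.87 FPKM in the control and 4.67, 3.29 and 3.47 FPKM in the knockdown libraries. UBA6 was at a similar level, 5.29 ± 0.65 and 4.43 ± 0.623 FPKM. Both had a lower mean in the knockdown libraries, with log2 differences of -0.22 (SE 0.18) and -0.21 (SE 0.17) and limma adjusted p-values of 0.892 and 0.886, and the groups overlapped in each.

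UBE2L3 passes ubiquitin only to ligases that carry it on a cysteine of their own, the HECT and RBR classes. UBE2L3 (gene ID 767894) was among the abundant members, at 477, 529.6 and 603 FPKM in the control and 476, 580.5 and 671 FPKM in the knockdown libraries. Knockdown 3 was the highest and knockdown 1 the lowest library, so the knockdown group spanned the whole control range. The HECT ligases it can serve were far less abundant than UBE2L3, with a median of 3.68 FPKM over the 18 of that list. The median over all genes was 1.60 FPKM. The most abundant of them were HACE1 (24.1 FPKM over the 6 libraries) and TRIP12 (15.9 FPKM). Among RBR ligases ARIH1 averaged 30.2 ± 2.34 and 33.1 ± 3.28 FPKM and RNF19B 54.5 ± 1.66 and 57.2 ± 6.45 FPKM. Of 15 tested HECT genes 10 were higher and 5 lower in the knockdown libraries, and 0 reached an unadjusted limma p under 0.05, beside 6.53% of all tested genes.

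UBE2H serves the multi-subunit CTLH ligase, of which MAEA and RMND5A are the RING subunits. UBE2H (gene ID 539313) stood at 69.3, 61.8 and 57.2 FPKM in the control and 66.5, 66.8 and 58.5 FPKM in the knockdown libraries, a range of 57.2 to 69.3 FPKM in which the groups overlapped. MAEA averaged 20.1 ± 4.86 and 18.2 ± 1.19 FPKM and RMND5A 11.0 ± 0.935 and 13.1 ± 3.13 FPKM. UBE2Q1 and UBE2Q2 are larger and less studied E2s. UBE2Q2 stood at 114, 104 and 105 FPKM in the control and 118, 111 and 105 FPKM in the knockdown libraries, and UBE2Q1 at 53.6, 46.2 and 57.0 FPKM in the control and 53.2, 44.5 and 51.4 FPKM in the knockdown libraries. UBE2Q2 exceeded UBE2Q1 in all 6 libraries, by a ratio of 1.85 to 2.49.

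UBE2W, which attaches ubiquitin to the amino terminus of proteins rather than to a lysine, showed the largest difference between the groups of any tested member. UBE2W (gene ID 613423) stood at 33.5, 25.9 and 27.9 FPKM in the control and 21.3, 21.1 and 21.1 FPKM in the knockdown libraries. The knockdown values were nearly identical, and every one lay below every control value, of which control 1 was the highest. The means of 29.1 ± 3.91 and 21.1 ± 0.108 FPKM (SD, n = 3) stood in a ratio of 0.726. The log2 difference was -0.44 (SE 0.15) with an interval of -0.77 to -0.10 that is not corrected for the number of genes. By limma the unadjusted p was 0.0159 and the Benjamini-Hochberg adjusted p over all tested genes 0.72, so UBE2W did not pass. Without control 1 the log2 difference was -0.33 and the unadjusted limma p 0.0644 (adjusted p = 0.728), and over all settings the adjusted p ranged from 0.579 to 1.00. The summed cumulus and granulosa markers were 177 FPKM in control 1 and highest in knockdown 2, at 208 FPKM. Much of each sum came from STAR (72.55 and 64.29 FPKM) and HAS2 (40.15 and 48.18 FPKM), given for control 1 and knockdown 2. The part of cumulus and granulosa cells in the UBE2W result was not tested.

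The scarce members close the list. UBE2U, a little studied E2, stood at 5.88, 6.54 and 4.29 FPKM in the control and 2.99, 4.64 and 5.38 FPKM in the knockdown libraries, with a log2 difference of -0.31 (SE 0.22) and the interval that reached furthest below 0 (-0.82 to 0.20). With 1 library left out it ranged from -0.46 (without control 3) to -0.12 (without knockdown 1). UBE2O, a very large protein that acts as E2 and E3 in one, stood at 0.57, 0.52 and 0.42 FPKM in the control and 0.84, 0.23 and 0.48 FPKM in the knockdown libraries. UBE2QL1 was listed at 0 in all libraries but control 1 (0.09 FPKM) and knockdown 2 (0.18 FPKM). UBE2O and UBE2QL1 fell below the filter of a mean of 1 FPKM and were not tested.

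Knockdown 1 held the lowest value of a member more often than any other library. Among the 29 tested members the highest value fell in control 1, 2 and 3 for 6, 7 and 7 genes (20.7%, 24.1% and 24.1%). It fell in knockdown 1, 2 and 3 for 2, 4 and 3 genes (6.90%, 13.8% and 10.3%). Over all tested genes the shares were 21.3%, 13.1% and 12.7% for control 1, 2 and 3 and 21.9%, 15.5% and 15.5% for knockdown 1, 2 and 3. The lowest value fell in knockdown 1 for 9 members (31.0%), against 14.2% of all tested genes, and the highest for 2 (6.90%), against 21.9%. Control 3 held the lowest value for 2 members (6.90%), whereas over all tested genes it held the lowest value most often, for 28.8% of them. The tested members had a median of 72.0 FPKM, against 8.57 FPKM over all tested genes, and knockdown 1 had the lowest FPKM sum of the libraries (784366). These shares are descriptions, and the part of level or library scale in them was not tested.

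The E1 enzymes stand before the E2s in the pathway. The ubiquitin E1 UBA1 averaged 22.4 ± 2.71 and 19.7 ± 1.45 FPKM, which placed it between UBE2W and UBE2J2 in the order of the E2 genes. Of the 8 E1 genes tested 2 were higher and 6 lower in the knockdown libraries, with a median log2 difference of -0.06. Over all 9730 tested genes 5275 were higher and 4455 lower. By limma 0 of the E1 genes reached an unadjusted p under 0.05, beside 6.53% of all tested genes. The groups did not overlap for UBA3, which was lower, as were 5.05% of all tested genes. Of the E2 enzymes and E2-like proteins that do not bear a UBE2 symbol, all 6 that were tested had a higher mean in the knockdown libraries. Their median log2 difference was 0.09, against 0.02 over all tested genes, and 0 reached an unadjusted limma p under 0.05, beside the same 6.53%. They include TSG101, which resembles an E2 without its catalytic cysteine (322 ± 31.8 and 329.6 ± 10.9 FPKM), AKTIP (182 ± 32.8 and 195 ± 7.30 FPKM) and CDC34, the sister of UBE2R2 (52.8 ± 12.2 and 57.0 ± 7.88 FPKM).

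Among the RING and RBR ligases, 18 of 37 tested genes were higher and 19 lower in the knockdown libraries, with a median log2 difference of -0.01. 1 of them, the chaperone-linked ligase STUB1, which works with UBE2D and UBE2N enzymes, reached an unadjusted p under 0.05, which 6.53% of all tested genes did. STUB1 stood at 6.71, 6.20 and 5.54 FPKM in the control and 10.7, 10.6 and 10.4 FPKM in the knockdown libraries, and every knockdown value lay above every control value. Its log2 difference was 0.70 (SE 0.15) with a limma adjusted p of 0.552, so it did not pass. The groups also did not overlap for RNF5 and RNF31, which were higher, and for RNF111, which was lower, beside 11.0% of all tested genes in either direction. In these lists 0 genes passed over all tested genes.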

How the data were processed

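Oocyte RNA was extracted with TRIzol and made into mRNA libraries with a kit from BGI, per the labels' protocols. For each library the authors deposited FPKM with 2 decimals for 17325 genes. The build ARS-UCD1.2 and the tools RSEM 1.3.1, HISAT2 2.2.1, DESeq2 1.4.5 and Bowtie2 2.3.4.3 come from the submitters' processing notes, which give no role or order. Strand use and the handling of shared reads are not given in the sources used here.

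Members were taken by symbol, and all 31 matched the RefSeq table of ARS-UCD2.0 by gene ID. Coordinates are left out, since that table is of another build. Genes with a mean of at least 1 FPKM (9730) were tested on the log2(FPKM + 1) scale with limma 3.58.1 in R 4.3.3 (eBayes with trend, two-sided, group as the only term), with Benjamini-Hochberg adjustment over all tested genes at 0.05. This scale understates changes of low genes. Values of 1 member and of some pathway genes are not reported here; counts, sums and medians over the set include them. The values are not counts, depth is unknown, and no counting intervals are given. The scripts were first tested on simulated data, in which the lowest genes were not changed. In each simulation 200 of 9730 genes were changed, by log2 differences of 0.5, 1, 2 or 3. At the adjusted threshold limma recovered 10.1% of simulated log2 differences of 0.5 and 79.8% of those of 1. The adjusted cutoff depends on how many genes differ and by how much, and 0 genes passed in these data. The shares recovered may therefore be too high for them. A lack of adjusted calls thus says little about differences of 0.5 or less, and the power for larger ones is not known.

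The members and gene lists were chosen with earlier results of these data known. Genes were named by rule: all members, and from each pathway list those with the smallest p or the highest mean, and a few known partners of the members chosen after their values were seen. The ratio of UBE2D3 to UBE2D2 and the UBE2D3 share were singled out after their values were seen. Alternatives were other pseudocounts, filters and scalings, a replicate block, robust eBayes and leaving out each library. Tables and plots used Python 3.11.15, pandas 2.3.3 and matplotlib 3.10.9.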

Additional observations from a re-analysis of the deposited data

How the results depend on the processing

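No member passed the adjusted threshold in limma under any of the 15 alternatives (0 in each). The count over all genes was 2 with a minimum mean of 5 FPKM, 2 after rescaling to equal sums, and 0 to 2 with 1 library left out. The count of members at an unadjusted p under 0.05 was 0 to 2 with 1 library left out: 0 without control 1, and 2 without control 3 (UBE2V2 and UBE2W) and without knockdown 2 (UBE2D4 and UBE2W). The median log2 difference of the members was -0.0522 under median-ratio scaling and -0.04 to -0.02 with 1 library left out. Unadjusted calls over all genes were 376 higher and 259 lower as deposited, 322 and 327 under median-ratio scaling and 306 and 357 under quantile normalization. The sign held in every alternative for 15 of the 28 tested members reported one by one, UBE2W, UBE2D3, UBE2D4, UBE2V2, UBE2J2 and UBE2D2 among them. Under median-ratio scaling it turned for UBE2E2 (-0.000545), UBE2G1 (-0.00502), UBE2H (-0.00827) and UBE2V1 (-0.0211), under quantile normalization for UBE2E2 (-0.0342), and after rescaling to equal sums for UBE2R2 (0.00587). With 1 library left out, the log2 difference ranged from -0.23 to 0.10 for UBE2A, -0.17 to 0.11 for UBE2B, -0.16 to 0.0296 for UBE2D1, -0.10 to 0.19 for UBE2E2, -0.14 to 0.27 for UBE2F, -0.0398 to 0.13 for UBE2G1, -0.0351 to 0.10 for UBE2H, -0.0599 to 0.23 for UBE2J1, -0.0220 to 0.22 for UBE2L3, -0.21 to 0.15 for UBE2M, -0.15 to 0.00561 for UBE2Q1, -0.13 to 0.0737 for UBE2R2 and -0.0304 to 0.10 for UBE2V1. Without a change of sign it ranged from -0.27 to -0.02 for UBE2K, -0.35 to -0.15 for UBE2Z, 0.15 to 0.34 for UBE2J2 and 0.08 to 0.22 for UBE2D2. The cause was not tested. The log2 ratio of UBE2D3 to UBE2D2, an alternative set added after seeing the data, ranged from -0.33 to -0.26 with 1 library left out. The summed FPKM of the members was 7116 to 7548 in the control and 6943 to 7099 in the knockdown libraries with 1 library left out. MTFP1 kept its direction, at 0.14 to 0.44 with 1 library left out. Its log2 difference was 0.09 with a pseudocount of 5 and 0.96 with a pseudocount of 0.1.

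Deviations of same-numbered libraries from their group means correlated at 0.03, -0.16 and 0.07. Those of differently numbered libraries correlated at -0.26 to 0.23. Such correlations cannot show whether same-numbered libraries were paired. For UBE2V2 the replicate block lowered the SE from 0.19 to 0.13. Its unadjusted limma p went from 0.18 to 0.0762 (adjusted p = 0.77). With the replicate number as a block, 0 genes and 0 members passed the adjusted threshold, 1 member (UBE2W) had an unadjusted p under 0.05, and the median log2 difference of the members was -0.02. Depth is unknown, so how far it limits the scarce members, such as UBE2M and UBE2J1, cannot be given.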
